A study of Mus musculus with 6 samples.

Results

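Cytosolic DNA sensing genes were measured in 4T1 cells, a mouse breast carcinoma line. Cultures without and with doxycycline, the inducer of a LINE-1 (L1) retrotransposon cassette in these cells, were compared. The genes were taken by symbol, and all 9 were in the table of 24421 genes. They are Mb21d1 (the cGAS gene, now called Cgas), Ifi204, Aim2 and Zbp1 among sensors, Tmem173 (the STING gene, now called Sting1), the kinases Tbk1 and Ikbke, the hydrolase Enpp1 and the DNA-binding protein Banf1. No measured value entered the rule that took them, but earlier results of these data were known when it was set. All 9 passed the filter on low counts that left 13084 genes for testing. Both groups were cultures of one stable population, 4T1-tetL1(GLucAI), of strain BALB/cfC3H, that carries a doxycycline-inducible recoded mouse L1 with a Gaussia luciferase reporter of retrotransposition. The 3 untreated libraries (the treatment tag says vehicle) came from cells without the inducer, and the 3 doxycycline libraries came from cells exposed to 400 ng/mL doxycycline for 48 h. The drug also drives firefly luciferase from the same bidirectional promoter, and no library here had the drug without the cassette, so drug, luciferase and L1 cannot be told apart. The comparison asks what differs in the transcripts of tumour cells given the inducer of this cassette, among them those of inflammatory signalling.

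In the cytosol, cGAS binds double-stranded DNA and makes the messenger cyclic GMP-AMP (cGAMP), which binds STING. STING recruits TBK1, and the related kinase IKKε, to phosphorylate the transcription factor IRF3 and to feed NF-κB, and interferon and chemokine genes follow. AIM2 and IFI204 belong to the PYHIN family of DNA-binding proteins, and AIM2 builds an inflammasome, whereas ZBP1 binds Z-form nucleic acid and can start necroptosis through the kinase RIPK3. ENPP1 removes cGAMP outside cells, and BANF1 coats nuclear DNA and competes with cGAS for it.

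Library totals ran from 31653464 to 43631312 counts, with overlapping ranges in the groups, and 3 counts correspond to 0.0683 to 0.0944 CPM, the usual count scaled to library size (here after TMM scaling). The L1 cassette was not analysed here, so the labels were not checked by it. Epithelial markers were abundant, at a summed 1811 to 2054 CPM, and only Krt19 among the 8 was called (lower with doxycycline, log2 fold change -0.31, edgeR adjusted p 0.00782). The 11 leukocyte markers summed to 26.6 to 29.7 CPM in untreated and 22.0 to 24.5 CPM in doxycycline libraries, and the 8 fibroblast and endothelial markers to 35.9 to 38.5 and 27.7 to 29.0 CPM. Most of those sums came from Cd68, Cd14 and Pdgfra. Cd14 (log2 fold change -0.48, edgeR adjusted p 0.00482) and Pdgfra (-0.40, adjusted p 0.000952) were lower, while Ptprc and Lyz2 were near 0 and Adgre1, Thy1 and Lum were at 0 counts in every library. All libraries came from cultures of the same carcinoma cell population. Whether any leukocytes, fibroblasts or endothelial cells were present in them was not tested, nor was any part of such cells in the results below. In bulk RNA, fewer cells with a transcript and less of it per cell cannot be told apart.

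All 9 transcripts were detected in every library. Scaled to transcript length as RPKM (CPM per kilobase of transcript), mean levels over the 6 libraries ran from 117 ± 7.68 for Banf1 (SD, n = 6) to 0.258 ± 0.068 for Aim2. Ifi204 was second at 36.6 ± 1.12 RPKM. Tbk1 (16.6 ± 1.09), Tmem173 (14.9 ± 0.48) and Ikbke (13.5 ± 1.36) followed, and the ranges of neighbours among these 3 overlapped. Mb21d1 stood at 9.63 ± 0.54 RPKM, 6.04-fold above Zbp1 at 1.59 ± 0.42. Enpp1 (0.458 ± 0.069) and Aim2 were the lowest. The genes from cGAS through STING to both kinases thus had means between 9.63 and 16.6 RPKM, whereas Zbp1, Enpp1 and Aim2 were scarce. Levels per length rest on the longest matching RefSeq transcript and are approximate.

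**Figure D1:**
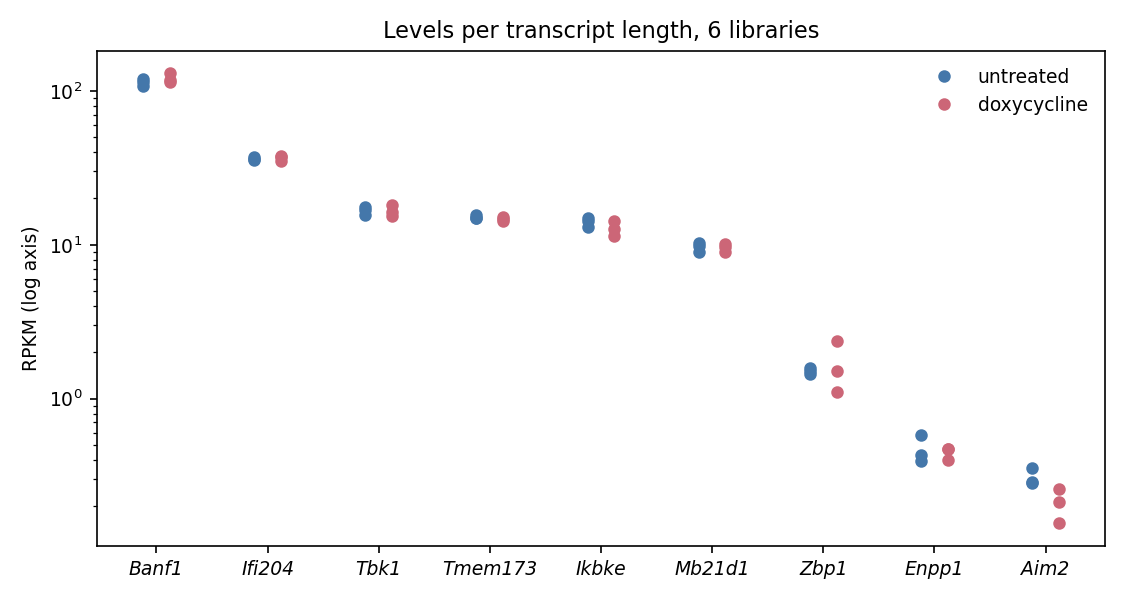
Level of each gene in RPKM (log axis) in 3 untreated (blue) and 3 doxycycline (red) libraries, 1 point a library, ordered by the mean over all 6. Banf1 lies at 107 to 130 RPKM and Aim2 at 0.155 to 0.353 RPKM, and points of the groups lie close together for most genes.

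Promoter sequence is shown for Mb21d1, the sensor of the pathway, for Ikbke and Aim2, which had the lowest 2 log2 fold changes among the 9 genes, and for Nfkbia, the NF-κB target that was called lower. Each line gives the 250 bases before the transcription start, 5′ to 3′ on the strand of the gene, from RefSeq on GRCm38.p6. Capitals mark matches, on either strand, to an interferon response element core (GAAANNGAA), a gamma-activated site (TTCNNNGAA), an NF-κB site core (GGGNNNTTC) or a TATA box (TATAAA). Windows lie at chr9:78443238-78443487 (minus strand), chr1:131279564-131279813 (minus), chr1:173420354-173420603 (plus) and chr12:55492648-55492897 (minus). The starts used for Ikbke and Aim2 lie inside the annotated spans of these genes.
Mb21d1: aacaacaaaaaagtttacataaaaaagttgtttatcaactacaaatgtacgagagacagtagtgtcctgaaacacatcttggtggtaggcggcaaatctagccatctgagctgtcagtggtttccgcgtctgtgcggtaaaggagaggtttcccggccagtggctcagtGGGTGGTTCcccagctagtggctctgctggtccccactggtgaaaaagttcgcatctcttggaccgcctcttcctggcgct
Ikbke: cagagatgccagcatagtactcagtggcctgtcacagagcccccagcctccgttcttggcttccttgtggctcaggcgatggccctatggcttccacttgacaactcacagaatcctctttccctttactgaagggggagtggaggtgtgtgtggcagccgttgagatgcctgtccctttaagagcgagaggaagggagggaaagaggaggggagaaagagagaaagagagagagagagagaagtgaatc
Aim2: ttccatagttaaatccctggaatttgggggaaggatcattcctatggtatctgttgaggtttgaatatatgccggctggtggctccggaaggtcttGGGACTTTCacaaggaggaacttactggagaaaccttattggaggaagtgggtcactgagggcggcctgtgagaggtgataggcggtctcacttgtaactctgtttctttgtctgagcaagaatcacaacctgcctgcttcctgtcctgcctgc
Nfkbia: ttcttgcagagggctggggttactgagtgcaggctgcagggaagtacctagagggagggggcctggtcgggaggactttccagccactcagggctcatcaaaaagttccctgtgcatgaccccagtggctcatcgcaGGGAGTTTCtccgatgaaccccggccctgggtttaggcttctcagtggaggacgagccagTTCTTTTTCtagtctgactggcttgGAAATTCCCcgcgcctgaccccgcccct

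Of the 9 genes 6 had such a window, and Ifi204, Zbp1 and Tmem173 had none. In the 7 windows of these 6 genes (Banf1 has a pair), searched from 250 bases before to 50 after the start, the NF-κB core was found in 3, against 14.0% of all 32851 promoter windows. The matches were GGGTGGTTC in Mb21d1, GGGACTTTC in Aim2 and GGGGGATTC in Enpp1. The interferon core was in 0 of 7 (8.56% of all windows), as were the gamma-activated site (8.3%) and the TATA box (13.6%). The Nfkbia window held 3 NF-κB cores, 1 interferon core and 1 TATA box match (TTTATA, on the other strand). The NF-κB core GAAATCCCC and the TATA box match lie after the start, outside the printed bases. These are matches of letters, and binding was not measured.

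No gene of the 9 was called in either direction when doxycycline and untreated libraries were compared (edgeR quasi-likelihood test, Benjamini-Hochberg adjusted p under 0.05 over all genes), where 3.09% of all tested genes were called. The count at an unadjusted p under 0.05 was also 0 of 9, where 16.2% of all tested genes passed. It was 0 by the DESeq2 Wald test and by limma voom and 1 (Ikbke) with no filter on low counts. It was also 1 without untreated replicate 1 (Ikbke), without doxycycline replicate 1 (Banf1) and without doxycycline replicate 2 (Ikbke). Of the 9 log2 fold changes 3 were above and 6 below 0, with a median of -0.02, and the median size of the change was 0.060 against 0.089 over all tested genes. Aim2 was the 1 gene with groups apart, against 21.3% of all tested genes. Without doxycycline replicate 2 the number called was 1, Ikbke. That fit called 269 genes higher and 487 lower over the whole table, against 121 and 283 with all libraries.

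**Figure D2:**
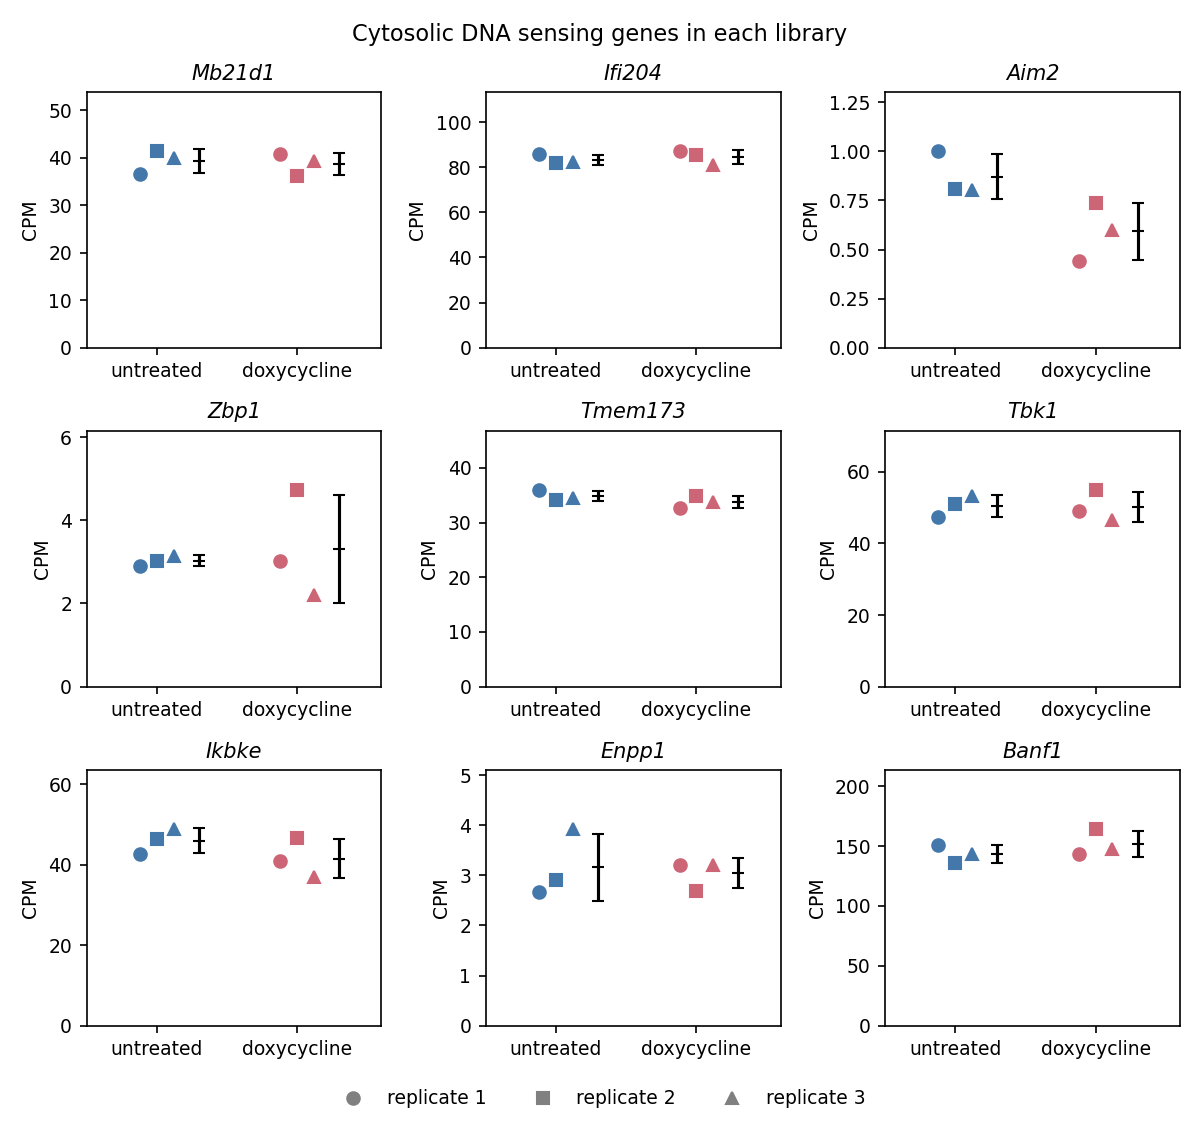
CPM of the 9 genes in each library (blue untreated, red doxycycline; symbols give the replicate number), with the mean and SD of each group in black; every axis starts at 0. Only Aim2 shows groups that do not overlap, and Zbp1 ranges from 2.19 to 4.73 CPM among doxycycline libraries.

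Among the sensors, Mb21d1 (chromosome 9, 78430518 to 78443237, minus strand) stood at 36.5, 41.4 and 39.9 CPM in untreated replicates 1 to 3 and at 40.7, 36.1 and 39.3 CPM in doxycycline replicates 1 to 3. The highest and the lowest library each belonged to a different group, and the ranges covered each other almost fully. Its log2 fold change was -0.02 (95% interval -0.16 to 0.12, edgeR adjusted p 0.92), which bounds the fold between 0.892 and 1.09. The gene overlaps the pseudogene Gm8093 on the opposite strand.

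Ifi204 (chromosome 1, 173747293 to 173767069), a DNA-binding PYHIN protein that can act with STING, was the steadiest of the 9 across libraries. It had 85.9, 81.8 and 82.4 CPM in untreated and 87.2, 85.4 and 80.9 CPM in doxycycline libraries, with overlap at both ends. The log2 fold change was 0.02 (interval -0.09 to 0.13, edgeR adjusted p 0.903). PYHIN genes have close copies, so any reads shared between them would make single values uncertain.

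Aim2 (chromosome 1, 173349547 to 173466040), the inflammasome-forming sensor, had 44, 27 and 30 counts in untreated and 14, 30 and 23 counts in doxycycline libraries. On the CPM scale these are 1.002, 0.809 and 0.801 against 0.440, 0.735 and 0.601. All 3 doxycycline libraries lay below all 3 untreated ones, yet the nearest pair differed by less than either group's SD (0.114 and 0.147 CPM). The log2 fold change was -0.55 with an interval from -1.27 to 0.18 (edgeR adjusted p 0.464). Aim2 had 168 counts in all libraries together, and the interval takes in no change. Aim2 overlaps Cadm3 on the opposite strand.

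Zbp1 (chromosome 2, 173206612 to 173218959), the Z-nucleic acid sensor and an interferon-inducible gene, was even in untreated libraries at 2.89, 3.03 and 3.15 CPM. In doxycycline libraries it had 3.02, 4.73 and 2.19 CPM, so replicate 2 was the highest and replicate 3 the lowest of all 6. The log2 fold change of 0.14 (interval -0.32 to 0.60, edgeR adjusted p 0.819) rested on that library and was -0.22 without doxycycline replicate 2 and 0.37 without doxycycline replicate 3.

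Other interferon-inducible genes of the fixed list of STING outputs had uneven values in the same libraries. Relative to the untreated mean, doxycycline replicate 2 had 1.56 times the CPM for Zbp1, 1.78 times for Ifit3, 1.66 times for Irf7 (an interferon-induced transcription factor), 1.25 times for Isg15 (a ubiquitin-like antiviral protein) and 1.19 times for Rsad2. Doxycycline replicate 1 was also above that mean for some of them, at 1.34 times for Isg15, 1.40 times for Ifit3, 1.185 times for Irf7 and 1.105 times for Rsad2, but at 0.999 for Zbp1. Doxycycline replicate 3 was below the untreated mean for Zbp1 (0.726) and for all 7 others, at 0.828 to 0.963. Ifit2 was low in doxycycline replicate 2 as well, at 0.833. None of these genes was called between the groups, except Irf7 with no filter on low counts.

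**Figure D3:**
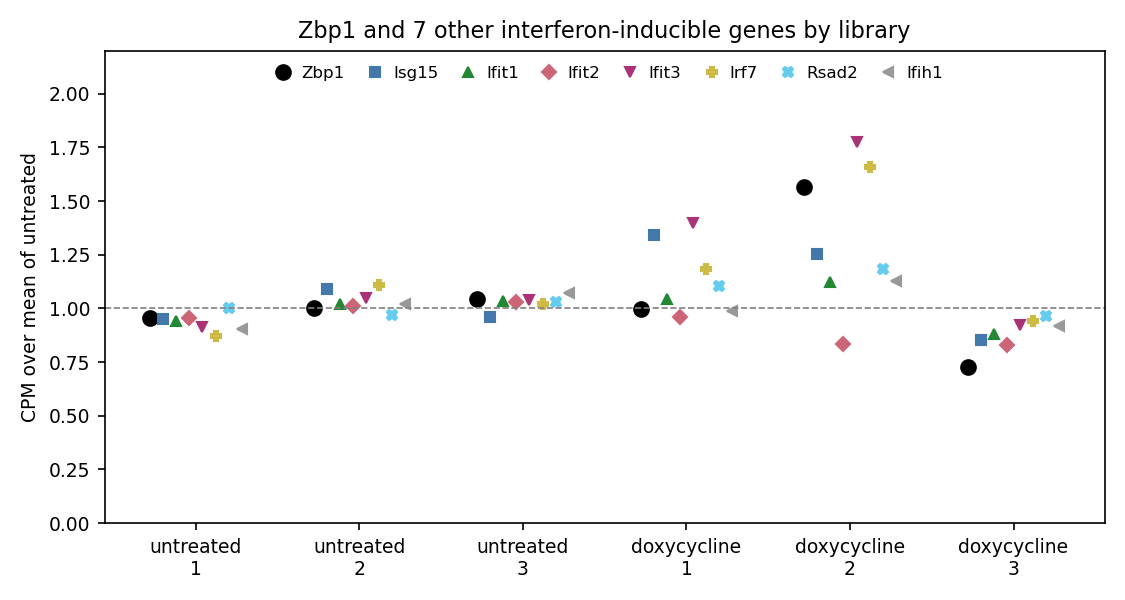
CPM of Zbp1 and of 7 interferon-inducible genes in each library, divided by the mean of the 3 untreated libraries of the same gene (dashed line at 1). Untreated libraries stay between 0.869 and 1.11, doxycycline replicate 2 reaches 1.78 for Ifit3, and doxycycline replicate 3 lies below 1 for every gene shown.

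The adaptor Tmem173, which carries the signal of cGAMP from the endoplasmic reticulum, was nearly constant. It had 36.0, 34.2 and 34.5 CPM in untreated and 32.7, 34.9 and 33.8 CPM in doxycycline libraries. The ranges overlapped, with a log2 fold change of -0.05 (interval -0.18 to 0.09, edgeR adjusted p 0.79) and hence a fold between 0.882 and 1.06.

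Of the kinases, Tbk1 (chromosome 10, 121546455 to 121586794) had 47.3, 50.9 and 53.2 CPM in untreated and 49.1, 54.9 and 46.6 CPM in doxycycline libraries. Doxycycline libraries held both the highest and the lowest value. The log2 fold change was -0.01 (interval -0.15 to 0.13, edgeR adjusted p 0.976).

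Ikbke (chromosome 1, 131254600 to 131279601), whose product IKKε is itself inducible by inflammatory signals, had 42.7, 46.3 and 48.9 CPM in untreated libraries. The values were 41.0, 46.8 and 36.9 CPM in doxycycline libraries, so replicates 1 and 3 lay below all untreated libraries and replicate 2 lay within their range. The log2 fold change was -0.14 (interval -0.30 to 0.02, edgeR adjusted p 0.367). Leaving out doxycycline replicate 2 gave -0.24, past the threshold (edgeR adjusted p 0.0207), and leaving out doxycycline replicate 3 gave -0.07 (adjusted p 0.781). Without doxycycline replicate 2, genes called over the whole table rose to 269 higher and 487 lower, from 121 and 283. Ikbke overlaps the antisense genes Gm28914 and Gm28913.

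Of the inhibitors, Enpp1 (chromosome 10, 24637914 to 24712159) was scarce, with 2.66, 2.91 and 3.93 CPM in untreated and 3.21, 2.69 and 3.21 CPM in doxycycline libraries. The untreated libraries held both extremes. Its log2 fold change was -0.06 with a wide interval of -0.45 to 0.33 (edgeR adjusted p 0.917), and it was 0.12 without untreated replicate 3.

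Banf1 (chromosome 19, 5364633 to 5366876) had 151, 136 and 143 CPM in untreated and 144, 164 and 148 CPM in doxycycline libraries. Doxycycline replicate 2 was the highest, and the other two lay within the untreated range. The log2 fold change was 0.08 (interval -0.03 to 0.20, edgeR adjusted p 0.479), and it was 0.02 without doxycycline replicate 2 and 0.05 without untreated replicate 2. Banf1 overlaps Eif1ad on the opposite strand.

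**Figure D4:**
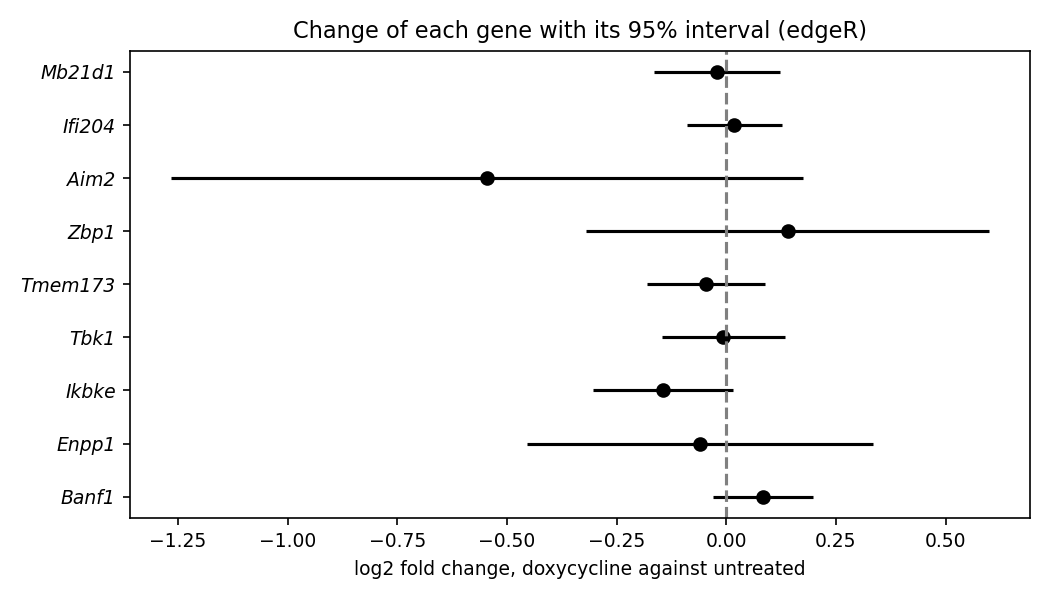
Log2 fold change of doxycycline against untreated libraries for each gene (point) with its 95% interval (line) from edgeR, 3 libraries a group. Every interval includes 0, and intervals are narrow for Ifi204 (-0.09 to 0.13) and wide for Aim2 (-1.27 to 0.18).

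Around these 9 genes, 80 further genes of the pathway were read from 6 lists, of which 71 were tested. Only 1 was called, Nfkbia (lower), and 0 were called higher. The share of 1 in 71 lies near the background of 3.09%. An unadjusted p under 0.05 was found for 10 of 71 (16.2% over all genes), and 14 of 71 had groups apart (21.3% over all genes). The median log2 fold change was -0.02, against 0.002 over all tested genes, with 31 genes above and 40 below 0.

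Partners and regulators of cGAS, STING and TBK1 numbered 24, all tested (median log2 fold change 0.02). The number called was 0, where 3.09% of all tested genes were called. Of the 24 genes 2 had an unadjusted p under 0.05, where 16.2% of all tested genes did. These 2 were Ddx41, a helicase described as a DNA sensor, at 37.0 ± 2.27 and 42.1 ± 3.73 CPM (SD, n = 3 each; log2 fold change 0.18, edgeR adjusted p 0.192), and Rnf5, a ubiquitin ligase that marks STING for degradation, at 25.2 ± 2.26 and 21.9 ± 1.23 CPM (-0.20, edgeR adjusted p 0.222). Irf3, the factor that TBK1 activates, had 22.7, 22.4 and 20.5 CPM in untreated and 23.4, 23.4 and 21.4 CPM in doxycycline libraries. The Irf3 ranges overlapped (log2 fold change 0.06, edgeR adjusted p 0.79).

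Enzymes that remove stray nucleic acid gave 0 calls, where 3.09% of all tested genes were called. Of the 8 tested of 10, 6 had a log2 fold change below 0 (median -0.09), and 4 of 8 had groups apart, against 21.3% of all tested genes. Trex1, the exonuclease that degrades cytosolic DNA, had 7.95, 7.97 and 8.04 CPM in untreated and 6.76, 7.13 and 6.97 CPM in doxycycline libraries. Its groups were apart, but the log2 fold change of -0.20 had an SE of 0.12 (edgeR adjusted p 0.418). The annotated span of Trex1 overlaps that of Atrip on the same strand. Samhd1, which depletes nucleotides and restricts L1, had 117 ± 1.70 and 112 ± 2.84 CPM (log2 fold change -0.07, edgeR adjusted p 0.509). Pld3, a lysosomal exonuclease, had 15.1 ± 0.76 and 13.4 ± 0.50 CPM (-0.17, edgeR adjusted p 0.365). Rnaseh2b, a subunit of the enzyme that cuts RNA in RNA-DNA hybrids, stood on the other side at 18.8 ± 1.77 and 21.9 ± 0.65 CPM (0.22, edgeR adjusted p 0.194).

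Carriers and channels of cGAMP gave 0 calls among 8 tested of 10 (median 0.02), where 3.09% of all tested genes were called. An unadjusted p under 0.05 was found for 1 of 8 (16.2% over all genes), and 1 of 8 had groups apart (21.3% over all genes). Lrrc8b, a subunit of the volume-regulated anion channel, had 53.5 ± 2.15 CPM in untreated and 59.5 ± 2.63 CPM in doxycycline libraries (log2 fold change 0.15, edgeR adjusted p 0.185). P2rx7, an ATP-gated channel, had 2.67 ± 0.62 and 1.98 ± 0.43 CPM (-0.43, edgeR adjusted p 0.354). The cGAMP hydrolase gene Smpdl3a had 0 counts in all 6 libraries.

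PYHIN relatives of Aim2 and Ifi204 ranged widely in level. Over the 6 libraries Ifi202b, which lacks a signalling domain and can restrain AIM2, stood at 58.8 ± 2.58 RPKM, Ifi203 at 45.1 ± 2.55, Mndal at 22.6 ± 1.55 and Ifi205 at 1.01 ± 0.29 RPKM. Mnda and Pyhin1 have no length here and had 24.7 ± 1.74 and 2.48 ± 0.38 CPM in untreated libraries, while Pydc3 had 11 counts in all libraries together and Pydc4 had 0. Among inflammasome genes, untreated libraries held 20.9 ± 1.92 CPM of Gsdmd (the pore-forming gasdermin D), 5.11 ± 0.50 of Casp1, 1.70 ± 0.41 of Il18, 0.630 ± 0.093 of Nlrp3 and 0.507 ± 0.028 of Il1b. Of 13 tested genes of this list 11 were below 0 (median -0.12), where 6443 of 13084 tested genes were. None was called, where 3.09% of all tested genes were, and 3 of 13 had an unadjusted p under 0.05, against 16.2% of all tested genes. Casp4, the sensor of cytosolic lipopolysaccharide, had 3.78, 4.17 and 4.19 CPM in untreated and 2.93, 2.84 and 2.40 CPM in doxycycline libraries. The Casp4 groups were apart, with a log2 fold change of -0.57 and SE of 0.17 that did not pass (edgeR adjusted p 0.0727). Pycard, the adaptor that links AIM2 to caspase-1, lay the other way, at 5.42, 8.0035 and 6.94 CPM in untreated and 9.40, 8.87 and 8.65 CPM in doxycycline libraries (log2 fold change 0.41, SE 0.13, edgeR adjusted p 0.111). Ifi203 had 169 ± 5.20 and 156 ± 6.93 CPM (-0.12, edgeR adjusted p 0.204) and shares sequence with the overlapping gene Mndal, and Casp1 did not pass (-0.28, edgeR adjusted p 0.4). Casp4 and Pycard were called with no filter on low counts.

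The partners of Zbp1 were unevenly present. Ripk3, the kinase through which ZBP1 starts necroptosis, had 2 counts in doxycycline replicate 2 and 0 in the other libraries, at or under the floor of 3 counts everywhere. Mlkl, the pore-forming protein that RIPK3 activates, was abundant at 68.2 ± 3.51 CPM in untreated and 68.9 ± 1.01 CPM in doxycycline libraries (log2 fold change 0.01, edgeR adjusted p 0.929). Adar, which edits double-stranded RNA and carries a Z-nucleic acid domain as ZBP1 does, had 101 ± 2.30 and 108 ± 14.8 CPM (0.10, edgeR adjusted p 0.546). Its value in doxycycline replicate 2 was 124 CPM, the highest of the 6, as for Zbp1. Fadd had 17.7 ± 1.54 and 16.3 ± 1.14 CPM (-0.12, edgeR adjusted p 0.542). Of the 6 tested genes of this list 0 had an unadjusted p under 0.05, against 16.2% of all tested genes.

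Of the genes that IRF3, interferon or NF-κB switch on after sensing, 12 of 14 were tested, with a median log2 fold change of -0.04, 6 above and 6 below 0. Nfkbia (chromosome 12, 55489409 to 55492647), the inhibitor and prompt target of NF-κB, had 61.3, 59.0 and 61.0 CPM in untreated and 43.8, 48.5 and 51.7 CPM in doxycycline libraries. It was lower in all 3 doxycycline libraries, by 0.33 on the log2 scale (log2 fold change -0.33, with SE 0.06 and edgeR adjusted p 0.00364), and the call held in all 14 alternatives. Tnfaip3, another feedback inhibitor of NF-κB, had 129 ± 2.80 and 115 ± 3.73 CPM (-0.17, edgeR adjusted p 0.0547) and was called in some alternatives.

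Interferon and chemokine outputs did not pass the threshold. Ifnb1, the interferon gene that IRF3 drives, had 4, 0 and 2 counts in untreated and 2, 0 and 0 in doxycycline libraries, too few to test. Cxcl10 had 16.9, 16.7 and 19.4 CPM in untreated and 16.2, 16.7 and 15.0 CPM in doxycycline libraries, lower in each of the latter by little (log2 fold change -0.14, edgeR adjusted p 0.457). Ccl5 had 16.2 ± 2.50 and 15.1 ± 0.995 CPM (-0.10, edgeR adjusted p 0.701), and Isg15 had 7.60 ± 0.58 and 8.73 ± 1.98 CPM (0.20, edgeR adjusted p 0.532). Both chemokine transcripts were present at rest, with Ifnb1 near 0 in both groups.

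**Figure D5:**
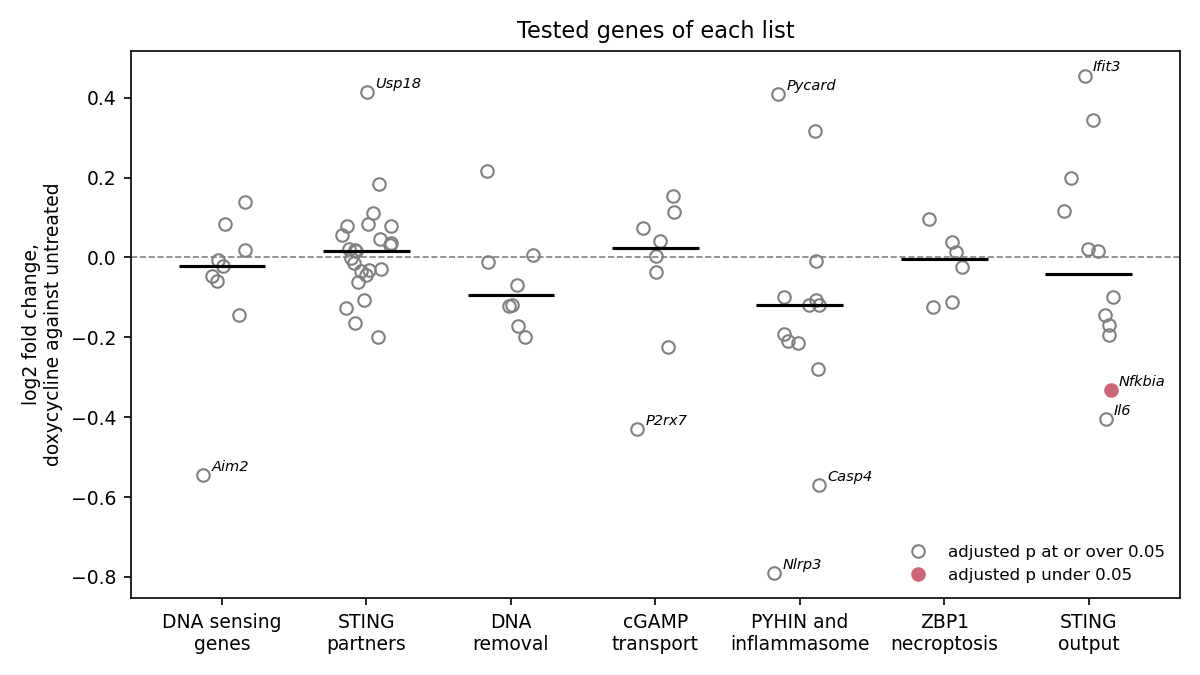
Log2 fold change (doxycycline against untreated) of every tested gene in the 9 DNA sensing genes and the 6 pathway lists; the filled point is the 1 gene at an adjusted p under 0.05, Nfkbia, and bars are list medians. Medians lie between -0.12 for the PYHIN and inflammasome list and 0.02.

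Aim2 had the largest SD of log2 CPM over the 6 libraries (0.37), so the genes closest to its pattern were sought among 11657 genes of at least 1 mean CPM. Azin2 was closest, with a root mean square difference of 0.052 log2 units over the 6 libraries, where the median gene differed by 0.35. Its CPM were 3.14, 2.67 and 2.67 in untreated and 1.48, 2.57 and 2.12 in doxycycline libraries. Slc39a5 (0.086) and Naaa (0.091) came next. All of these, like Aim2, were lowest in doxycycline replicate 1 and were not called (edgeR adjusted p 0.304, 0.509 and 0.0688). The points share their libraries, depth and scaling. Aim2 had only 14 to 44 counts a library, and these genes were picked as the closest of 11657. Whether the likeness goes beyond counting error was not tested.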

How the data were processed

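Total RNA of 6 cultures was depleted of ribosomal RNA, and libraries were made with dUTP marking of strand. Per the paper's methods and the submitters' processing notes, the authors used bcl2fastq 2.20, STAR (version not given in the sources used here), the UCSC mm10/GRCm38 genome with its annotation, and featureCounts (Subread 1.6.2). The deposited values are whole-number counts per gene, not normalized. The strand setting and the handling of multiply mapped reads were not stated, so reads of overlapping or near-identical genes cannot be told apart. All 6 columns matched a sample by library code, and groups came from the sample titles. The study calls the libraries biological triplicates, and the labels do not say how the cultures were kept apart, so p-values measure the spread between these samples.

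Genes were kept by filterByExpr and tested with the quasi-likelihood test of edgeR 4.0.16 (R 4.3.3, TMM scaling, robust, two-sided, group as the only term), with Benjamini-Hochberg adjustment over 13084 genes at 0.05. The study used DESeq2. CPM were computed on TMM-scaled totals, SE as the absolute log2 fold change over the square root of F, and 95% intervals from SE and the t distribution of the fit. A prior count of 2 was used for log2 CPM in comparisons of patterns. RPKM used the longest GENCODE M21 transcript matched to RefSeq, and coordinates are RefSeq GRCm38, counted from 1. Replicate pairs differed by more than sampling noise (chi-square per degree of freedom 6.14 to 22.1). Pairs with doxycycline replicate 2 gave 22.1 and 14.5, doxycycline replicates 1 and 3 gave 6.85, and untreated pairs gave 6.14 to 13.1. Counts of the ribosomal RNA gene Rn45s were 12.1% of doxycycline replicate 2 and 8.83% to 11.0% of the other libraries. The part of this in the results was not tested. Intervals and floors of counts cover counting error and, for fits, library spread.

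The 9 genes and all lists were chosen with earlier results of these data known. Named are the 9 genes, called genes of each list and, where fewer than 2 were called, the 2 with the smallest p, a fixed set of 12 genes, and the 3 genes closest in pattern to the most variable of the 9. Ifit2, Ifit3, Irf7, Rsad2, Ifi202b, Ifi203, Ifi205, Mnda, Mndal, Pyhin1, Pydc3, Pydc4, Smpdl3a, Gsdmd, Il1b, Il18 and Nlrp3 were named after their values were seen. On simulated counts of 12974 genes, true changes were placed only in genes of at least 1 mean CPM. The test called 95% of those with a change of 1 on the log2 scale and 83% at 0.5, and 7.77% of its calls were unchanged genes. Aim2 lay below that level, at 0.871 CPM in untreated and 0.592 CPM in doxycycline libraries, so these shares do not cover it. The shares are pooled over genes of many levels and were not worked out for any single gene. They need not hold for Zbp1 and Enpp1, whose log2 fold changes had SEs of 0.22 and 0.19, against 0.069 for Mb21d1. Alternatives were other scalings, a minimum of 10 counts per library, no filter, DESeq2 1.42.0, limma voom (3.58.1), a replicate block and leaving out each library.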

Additional observations from a re-analysis of the deposited data

How the results depend on the processing

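The count of DNA sensing genes called stayed at 0 in 13 of 14 alternatives and ranged from 0 to 1 over the 6 fits with a library removed, where the 1 was Ikbke without doxycycline replicate 2. Among those fits log2 fold changes ranged from -0.18 to 0.12 for Enpp1, from -0.0044 to 0.049 for Ifi204, from -0.073 to 0.027 for Mb21d1, from -0.077 to 0.045 for Tbk1, from 0.023 to 0.12 for Banf1 and from -0.22 to 0.37 for Zbp1, and the median of the 9 genes from -0.071 to 0.0099. Pathway genes called numbered 2 with the DESeq2 Wald test, upper quartile factors or library size only, 5 with no filter, and 1 to 2 when a library was left out. Genes called higher and lower over the whole table were 121 and 283, against 210 and 439 with no filter. They ranged from 44 to 269 and from 116 to 487 when a library was left out. Both highest numbers came without doxycycline replicate 2. The cause of these differences was not tested. Same-numbered libraries did not deviate together (r -0.049, -0.0067 and 0.017 across genes), and r of the other pairs ran from -0.052 to 0.057. The labels do not say whether same-numbered cultures were handled together, and values of r near 0 cannot exclude it. With the replicate block 0 DNA sensing genes, 1 pathway gene and 118 higher and 300 lower genes were called. Aim2, Enpp1 and Zbp1 had the fewest counts, at 168, 696 and 719 in all, with SDs of log2 CPM within groups of 0.25, 0.23 and 0.39, and the parts of depth and library spread in these SDs were not tested. Aim2 has no adjusted p from DESeq2.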

Other observations

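Ratios of counts within a library do not depend on scaling. The ratio of Ikbke to Tbk1 was 0.903, 0.910 and 0.918 in untreated and 0.834, 0.851 and 0.793 in doxycycline libraries, lower in all 3 of the latter (exact permutation test over the 20 splits, two-sided, p = 0.1, the smallest this design allows, and 0.2 adjusted over 4 ratios). The ratio of Aim2 to Ifi204 was 0.0104 ± 0.0011 and 0.00703 ± 0.0018 (SD, n = 3 each), also without overlap and with the same exact p. The ratios of Tmem173 to Mb21d1 (0.892 ± 0.083 and 0.877 ± 0.084) and of Enpp1 to Mb21d1 (0.0805 ± 0.015 and 0.0784 ± 0.0036) overlapped. The 4 ratios were chosen after the values of the genes were seen.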
